A study of Homo sapiens with 4 samples.

Results

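Long noncoding RNA genes that carry small nucleolar RNAs (snoRNAs), GAS5, SNHG1, SNHG5, SNHG6, SNHG7, SNHG8, SNHG12, SNHG15, SNHG16 and ZFAS1, were examined in RNA-seq libraries of MDA-MB-231, a breast cancer cell line. The genes were picked by name, as a list of 10 noncoding snoRNA hosts, with earlier results of these data known. All 10 were found among the 32955 genes of the table. Of the 4 libraries, 2 had received a mimic negative control (mimic NC) by transfection and 2 a synthetic form of the microRNA miR-217 (miR-217 mimic), and in each group the libraries were numbered 1 and 2. All cells were grown in DMEM with fetal bovine serum, RNA was taken with TRIzol, and a stranded mRNA library kit was used. The labels do not say whether number 1 and number 2 were separate cultures, and so p-values measure the spread between these libraries, which may be technical. No dose or time of transfection was stated in the labels, and a transient transfection may leave part of the cells untouched.

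A snoRNA host gene is transcribed by RNA polymerase II and spliced, and its snoRNAs are cut out of the introns to guide chemical changes of ribosomal and spliceosomal RNA. The spliced host RNA is exported to the cytoplasm, where most hosts of this kind begin with a terminal oligopyrimidine (TOP) tract, as do the mRNAs of ribosomal proteins, and hold short reading frames. Ribosomes that meet the early stop codons bring the RNA to nonsense-mediated decay (NMD), which needs translation, and host RNAs are known to accumulate when translation is blocked or growth stops. GAS5 was named for its rise in growth-arrested cells. Comparisons of number 2 with number 1 and of miR-217 mimic with mimic NC describe the level of these RNAs, while translation itself was not measured.

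The libraries held between 32635814 and 57933183 reads on the listed genes, and both number 2 libraries were shallower than the number 1 library of their group. Among markers of the cell line, VIM, CD44, EGFR, CAV1, AXL and MSN were all detected, with VIM at 27.9 to 36.9 RPKM, and the luminal genes ESR1 (at most 0.0756 RPKM), CDH1 (at most 0.433 RPKM) and GRHL2 (at most 0.205 RPKM) were near 0. The endothelial gene PECAM1 reached at most 0.138 RPKM and the leukocyte gene PTPRC 0.351 to 1.25 RPKM, whereas EPCAM, an epithelial surface gene listed as absent, lay at 3.90 to 7.41 RPKM. CDKN2A, generally described as deleted in this line, lay at 10.5 to 13.2 RPKM, and it was chosen after its values were seen. Library totals and the markers CD44, AXL, CAV1 and MSN moved with the replicate number, and their part in the results was not tested.

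Levels were compared between genes as RPKM, reads per kilobase of counted exon per 1000000 reads on the listed genes. SNHG6, the host of SNORD87, had the highest mean RPKM, with 90.8 and 95.1 RPKM in mimic NC 1 and 2 and 92.4 and 113 RPKM in miR-217 mimic 1 and 2. ZFAS1, the host of the SNORD12 family, came next at 31.9 and 83.0 RPKM in mimic NC and 34.95 and 80.6 RPKM in miR-217 mimic. The SNHG6 values lay close together, and those of ZFAS1 fell apart by replicate number. GAS5 was measured at 8.62 and 15.4 RPKM in mimic NC and at 10.5 and 18.4 RPKM in miR-217 mimic. SNHG8, the host of SNORA24, stood at 9.05 and 17.4 RPKM in mimic NC and at 8.67 and 17.5 RPKM in miR-217 mimic. In both genes the number 2 library was the higher one in either treatment. SNHG15, the host of SNORA9, lay at 7.53 and 9.77 RPKM in mimic NC and at 7.74 and 12.5 RPKM in miR-217 mimic. SNHG1, the host of SNORD22 and of a run of further box C/D snoRNAs, lay at 4.32 and 7.17 RPKM in mimic NC and at 4.76 and 8.53 RPKM in miR-217 mimic. SNHG5, the host of the SNORD50 snoRNAs, lay at 3.57 and 5.58 RPKM in mimic NC and at 3.87 and 6.38 RPKM in miR-217 mimic. Both miR-217 mimic values of these hosts were above the mimic NC value of the same number. The least abundant were SNHG12 with SNORA44 and SNORA61 (2.72 and 2.86 RPKM in mimic NC, 2.65 and 4.07 RPKM in miR-217 mimic), SNHG16 with the SNORD1 snoRNAs (2.42 and 2.91, then 2.33 and 4.37 RPKM) and SNHG7 with the SNORA17 copies (1.72 and 2.33, then 1.55 and 2.58 RPKM). The second miR-217 mimic library was the highest of the 4 in every host but ZFAS1.

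**Figure D1:**
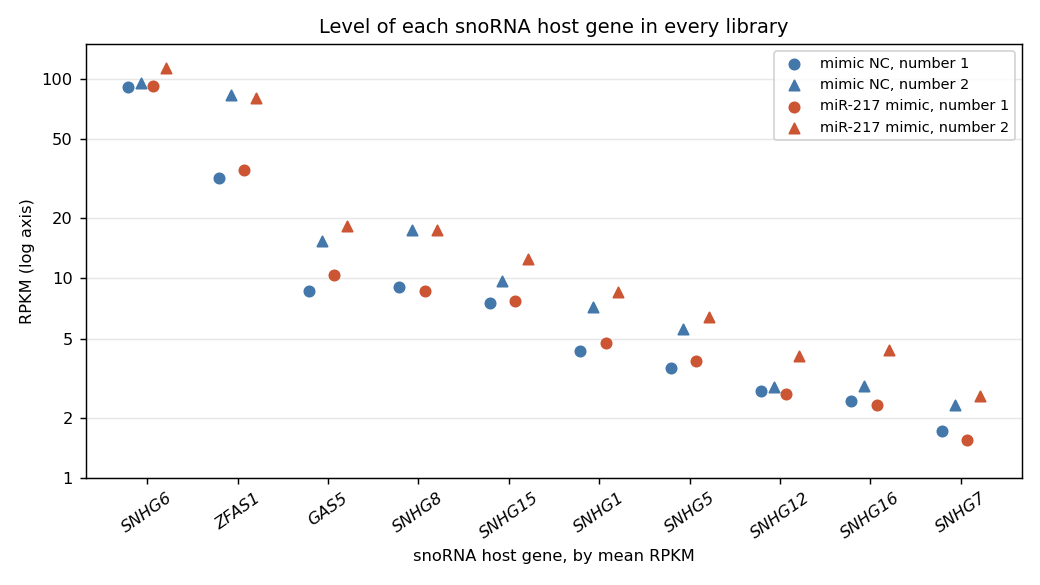
RPKM (log axis) of each snoRNA host gene in the 4 libraries, with circles for number 1, triangles for number 2, blue for mimic NC and red for miR-217 mimic. Triangles lie above circles for every gene, by most in ZFAS1 (about 32 to 35 RPKM against 81 to 83 RPKM) and by least in SNHG6 (91 to 92 RPKM against 95 to 113 RPKM).

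Ordered by mean RPKM, each gene stood above the next in all 4 libraries except for SNHG12 and SNHG16 and for GAS5 and SNHG8, which changed places in 2 of 4 libraries. Reads per library ran from 360 for SNHG7 in miR-217 mimic 1 to 8825 for ZFAS1 in mimic NC 2. All 10 genes passed the filter of a mean RPKM of 1 or more, and by mean level they ranged from the 21.1th percentile (SNHG7) to the 96.4th percentile (SNHG6) of the 13871 genes tested.

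The counted exons differ between the hosts and set what an RPKM means. On hg38 and in the coordinates of the table, GAS5 lies at chr1:173863900-173868882 on the minus strand, SNHG12 at chr1:28578538-28582983 (minus), SNHG8 at chr4:118278709-118279823 (plus), SNHG5 at chr6:85660950-85678736 (minus) and SNHG15 at chr7:44983023-44986961 (minus). SNHG7 lies at chr9:136721366-136728184 (minus), SNHG1 at chr11:62851988-62855914 (minus), SNHG16 at chr17:76557766-76565348 (plus) and ZFAS1 at chr20:49278178-49295738 (plus). In SNHG1 the counted exons cover 95.6% of the span, so that introns and the snoRNAs in them are counted as host. They also cover 63.7% (SNHG7) to 92.6% (SNHG15) of the spans of GAS5, SNHG7, SNHG8, SNHG12, SNHG15 and SNHG16, with 82.8% in SNHG8 and 72.9% in GAS5. In ZFAS1 they cover 12.8% and in SNHG5 15.7%. Several hosts also share counted bases with genes on the other strand. FAM69B covers 25.2% of SNHG7 and held 25 to 50 reads in all, against 360 to 480 reads for SNHG7, and MCMDC2 covers 29.3% of SNHG6 with 237 to 349 reads against 4603 to 6563. GAS5-AS1 held at most 19 reads, and TRNAU1AP shares 8 bases with SNHG12. ZNFX1 shares 249 bases with ZFAS1 and held 11958 to 16469 reads, so that for those bases the reads of the pair cannot be told apart unless strand was used in counting, which is not given in the sources used here.

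A TOP tract lies at the first bases of a transcript, and start sequences of 8 of the 10 hosts were read from RefSeq (GRCh38.p14), each from 35 bases before the annotated start to 25 bases from it on. Capitals mark the pyrimidine run at the start, a C followed by at least 4 further C or T with its first base within 8 bases of the start, and the motif TATAA with its first base 20 to 40 bases upstream, both searched on the transcribed strand alone. The 2 hosts with neither motif are printed in lower case throughout. Only the first listed start of each host was read, so a tract at another start or of another form would be missed.
ZFAS1 (chr20:49278607-49278666, plus): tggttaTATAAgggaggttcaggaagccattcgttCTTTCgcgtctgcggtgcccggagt
SNHG5 (chr6:85678709-85678768, minus): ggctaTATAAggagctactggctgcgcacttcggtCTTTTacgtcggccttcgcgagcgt
SNHG8 (chr4:118278727-118278786, plus): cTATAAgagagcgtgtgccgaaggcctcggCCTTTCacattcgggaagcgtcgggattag
SNHG7 (chr9:136728160-136728219, minus): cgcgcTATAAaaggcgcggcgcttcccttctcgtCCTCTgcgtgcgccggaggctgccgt
SNHG12 (chr1:28581849-28581908, minus): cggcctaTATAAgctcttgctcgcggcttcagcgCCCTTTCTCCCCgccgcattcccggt
SNHG16 (chr17:76557729-76557788, plus): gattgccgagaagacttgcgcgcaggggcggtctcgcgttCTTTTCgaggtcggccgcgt
SNHG1 (chr11:62855861-62855920, minus): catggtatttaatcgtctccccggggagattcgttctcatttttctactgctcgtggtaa
GAS5 (chr1:173869021-173869080, minus): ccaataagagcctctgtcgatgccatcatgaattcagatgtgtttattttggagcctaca

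The pyrimidine run was found in 6 of the 8 hosts, against 26.8% of 35116 RefSeq start regions of the same length, and TATAA in 5 of the 8, against 3.91% of them. The run was longest in SNHG12, with 12 bases, and 5 or 6 bases long in the other 5, and TATAA began 28 to 34 bases upstream. The RefSeq start is not the first base counted in the table for most of these hosts. In GAS5 the counted exons begin 163 bases downstream of it, and in SNHG12, ZFAS1, SNHG8 and SNHG1 they begin 1110, 464, 53 and 29 bases upstream. These letters describe the annotated starts and were not measured in the libraries.

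Number 2 libraries were compared with number 1 libraries within each treatment, as a description of libraries that share a number. The labels do not tie the number to translation. All 10 hosts were higher in both number 2 libraries than in both number 1 libraries, against 26.9% of all genes tested, and 5 of 10 passed the test across all genes, ZFAS1, SNHG8, GAS5, SNHG1 and SNHG5, against 3.69% of the genes tested that were called higher. No host was called lower, against 4.69% of the genes tested. The hosts were chosen with earlier results of these data known, so these shares describe the list and do not test it. RPKM is a share of a library, so that a higher share and more RNA per cell, or more cells that express a gene, cannot be told apart.

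ZFAS1 showed the largest rise, by 1.27 on the log2(RPKM + 1) scale (SE 0.08, 95% interval 1.06 to 1.48, limma adjusted p = 0.0205). Its RPKM was 2.60 times as high in number 2 as in number 1 in mimic NC and 2.31 times as high in miR-217 mimic. SNHG8 rose by 0.90 (SE 0.07, limma adjusted p = 0.0209), 1.93 times in mimic NC and 2.01 times in miR-217 mimic. GAS5 rose by 0.76 (SE 0.07, limma adjusted p = 0.0228), with ratios of 1.79 and 1.76 in the 2 treatments. The ratios of these hosts were alike in both treatments. SNHG1 rose by 0.67 (SE 0.08, limma adjusted p = 0.0303) and SNHG5 by 0.56 (SE 0.08, limma adjusted p = 0.0359). The differences of these 5 hosts lay between the 97.2th and the 99.8th percentile of all genes tested.

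The other 5 hosts had positive differences that did not pass the test. SNHG15 differed by 0.48 (95% interval 0.21 to 0.75, limma adjusted p = 0.0587), SNHG16 by 0.44 (0.05 to 0.83, adjusted p = 0.125) and SNHG7 by 0.39 (0.13 to 0.65, adjusted p = 0.0767). SNHG12 differed by 0.26 (-0.09 to 0.62, adjusted p = 0.236) and SNHG6 by 0.18 (-0.06 to 0.41, adjusted p = 0.235). SNHG6, the host with the highest mean RPKM, thus had the smallest difference. By reads, ZFAS1 stood above SNHG6 in both number 2 libraries (8825 against 5618 in mimic NC, 5900 against 4603 in miR-217 mimic) and below it in both number 1 libraries. Over the 10 hosts the median difference was 0.52, beside -0.04 over all genes tested.

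In each of these 5 hosts the gap between number 2 and number 1 was wider in miR-217 mimic than in mimic NC. This also held for SNHG1 (0.62 in mimic NC and 0.73 in miR-217 mimic), SNHG5 (0.52 and 0.60) and SNHG8 (0.87 and 0.93), which passed. It did not hold for GAS5 (0.77 and 0.76) or ZFAS1 (1.35 and 1.18). Such unlike gaps are also part of the spread in the fit, and so count against passing. SNHG16 differed by 0.19 between the numbers in mimic NC and by 0.69 in miR-217 mimic, SNHG12 by 0.05 and 0.48, SNHG15 by 0.34 and 0.62, SNHG6 by 0.07 and 0.29, and SNHG7 by 0.29 and 0.49. With 1 library for each number and treatment the difference between these differences could not be tested. The calls rest on few libraries. None of the 10 hosts passed without mimic NC 1 (lowest adjusted p = 0.0836) or without miR-217 mimic 1 (lowest adjusted p = 0.059), whereas all 10 were called higher without mimic NC 2, where 11.1% of the genes tested were called higher, and 5 without miR-217 mimic 2, where 5.82% were. With no filter on low genes 0 hosts passed (lowest adjusted p = 0.104), and with voom on the recovered reads 8 did, where 10.1% of the genes tested were called higher.

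**Figure D2:**
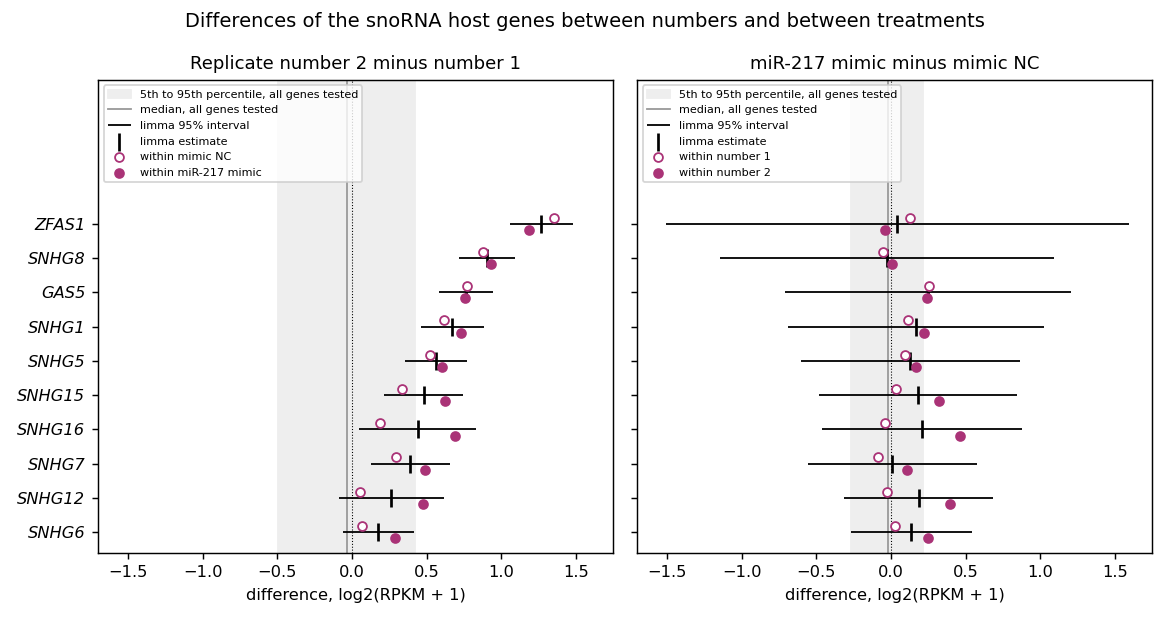
Differences on the log2(RPKM + 1) scale of each host, number 2 minus number 1 on the left and miR-217 mimic minus mimic NC on the right, with bars for the limma estimate and its 95% interval, circles for the difference within each treatment or number, and grey for the 5th to 95th percentile and the median of all genes tested. On the left the estimates run from 0.18 (SNHG6) to 1.27 (ZFAS1), and on the right from -0.03 (SNHG8) to 0.25 (GAS5) with every interval across 0.

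The second comparison asked whether the hosts differed after transfection of miR-217 mimic. No host passed the test, and neither did any of the 13871 genes (0% called, limma adjusted p = 1.00 for all hosts). At an unadjusted p under 0.05 there were 0 hosts and 165 genes (1.19%), and with voom on the recovered reads 0 hosts and 82 genes. No host had both miR-217 mimic libraries above both mimic NC libraries, against 9.72% of the genes tested. The mean RPKM of GAS5 was 12.0 ± 4.79 (SD, n = 2) in mimic NC and 14.4 ± 5.59 (SD, n = 2) in miR-217 mimic, and that of ZFAS1 57.5 ± 36.2 (SD, n = 2) and 57.8 ± 32.3 (SD, n = 2). The spread between the numbers was thus larger than the gap between the treatments.

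The largest difference was that of GAS5, 0.25 higher in miR-217 mimic (95% interval -0.71 to 1.20), and the lowest that of SNHG8, -0.03 (-1.15 to 1.09). Intervals were widest where the numbers differed most, up to -1.51 to 1.59 for ZFAS1. The median over the hosts was 0.15, beside -0.02 over all genes tested. Within number 1 the median was 0.03 and within number 2 it was 0.23, so that the difference lay mostly in the number 2 pair. GAS5 differed by 0.25 within number 1 and by 0.24 within number 2. SNHG16 differed by -0.04 within number 1 and by 0.46 within number 2, and SNHG12 by -0.03 and 0.40. With the replicate number as a block, GAS5 had an interval of 0.06 to 0.43 and an unadjusted p of 0.0195 (limma adjusted p = 0.633), where 1046 genes (7.54%) had an unadjusted p under 0.05, and no host passed.

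The mimic carries the sequence of miR-217, and miR-217-5p as given in RefSeq (chr2:55983020-55983042, minus) is shown with its seed, bases 2 to 8, in capitals because the seed sets which RNAs it can pair with. Of the 10 hosts, GAS5 and SNHG12 held the seed match ATGCAGT in GENCODE 29 transcripts, in 24 of 29 and 13 of 17 annotated transcripts, and the other 8 held none. The match is in capitals with the bases on either side of it, from the longest transcript with a match, GAS5-210 (position 49 of 1698) and SNHG12-206 (position 1840 of 1903).
hsa-miR-217-5p: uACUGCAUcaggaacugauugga
GAS5-210: gctgggtgcagATGCAGTgtggctctgga
SNHG12-206: tgcaaaaaattATGCAGTgtgctactgaa

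Among GENCODE 29 transcripts within 10% of those lengths, 12.2% held ATGCAGT at the length of GAS5-210 and 14% at that of SNHG12-206. Of these 2 hosts GAS5 had an estimate of 0.25 (95% interval -0.71 to 1.20) and SNHG12 one of 0.18 (-0.31 to 0.68), and with the replicate block the intervals were 0.06 to 0.43 and -0.17 to 0.54. Neither passed the test across all genes in either fit. Both signs turned in fits that left out 1 library, but such fits leave the numbers unequal between the treatments and so mix the comparisons. Within number 1 and within number 2, GAS5 differed by 0.25 and 0.24, and SNHG12 by -0.03 and 0.40.

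Mature snoRNAs have no poly(A) tail and the library kit was one for mRNA, and few reads fell on the snoRNAs themselves. In GENCODE 29, 26 snoRNA genes lie inside the hosts, and 21 of them have over 50% of their bases within counted host exons. The table has 16 snoRNA rows that lie wholly inside 7 of the hosts, and 8 of these rows had at least 10 reads on average. SNORA17 and SNORA17A, which overlap in SNHG7, both held 88, 85, 88 and 81 reads, so that reads on shared bases appear to be entered for each gene. Reads of snoRNA rows made up 31.5% to 43.0% of the reads of SNHG12, 14.6% to 28.6% of those of SNHG1, 18.8% to 26.1% of those of SNHG7 and at most 1.37% of those of SNHG5, SNHG6, SNHG16 and ZFAS1. With these reads subtracted, the number difference of SNHG1 was 0.79 (limma adjusted p = 0.0267) and that of SNHG12 0.32 (adjusted p = 0.114), and the same 5 hosts passed. GAS5, SNHG8 and SNHG15 had no snoRNA row wholly inside them, so nothing was subtracted. Their differences could not change, and any snoRNA reads in them remained.

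In SNHG12, SNORA61, a box H/ACA snoRNA, held 223 and 136 reads in mimic NC 1 and 2 and 179 and 161 reads in miR-217 mimic 1 and 2. It was lower in number 2 in mimic NC (29.6 and 22.1 RPKM) and higher in miR-217 mimic (25.8 and 37.9 RPKM). In SNHG1, SNORD22 behaved likewise, with 103, 75, 99 and 84 reads. SNORD26 held 74 and 64 reads in mimic NC and 105 and 65 reads in miR-217 mimic, or 17.0 and 18.01 RPKM against 26.2 and 26.6 RPKM. SNORD25 held 43, 47, 69 and 45 reads, or 10.8 and 14.4 RPKM against 18.7 and 19.98 RPKM. Both box C/D snoRNAs were higher in miR-217 mimic without overlap, by 0.57 and 0.60, against 9.72% of the genes tested. They did not pass (limma unadjusted p = 0.005 and 0.0183, adjusted p = 1.00). SNORD22 was also higher in miR-217 mimic without overlap, by 0.34 (limma unadjusted p = 0.125). SNORA44, a row of which 55% lies in SNHG12 exons, rose by 1.11 (limma adjusted p = 0.0312), from 13 and 5 reads in number 1 to 30 and 19 reads in number 2. SNORD87 in SNHG6 rose with the number from 11 and 13 reads to 21 and 15 reads, by 0.83 (limma adjusted p = 0.0295), and SNORA17A in SNHG7 differed by 0.39 (adjusted p = 0.0885).

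The differences of SNORD12C and SNORD12B, which lie in ZFAS1 introns, were opposite in sign to that of their host. SNORD12, which lies within counted ZFAS1 exons, was below the filter of a mean RPKM of 1. It held 1 and 8 reads in mimic NC and 1 and 1 reads in miR-217 mimic, so that any direction rests on mimic NC alone. SNORD12C held 57 and 35 reads in mimic NC and 50 and 10 reads in miR-217 mimic, which was 11.1 and 8.30 RPKM and 10.5 and 3.44 RPKM. SNORD12B held 20, 14, 14 and 4 reads, or 3.79 and 3.25 RPKM and 2.88 and 1.35 RPKM. Both were lower in the number 2 library of either treatment, where spliced ZFAS1 was more than 2 times as high. The differences were -0.87 (95% interval -1.56 to -0.19, limma adjusted p = 0.0999) and -0.45 (-0.87 to -0.03, adjusted p = 0.136) and did not pass. Of 3 short rows named ZNFX1-AS1 that lie wholly within the ZFAS1 exons, 2 passed the test. ZNFX1-AS1_1 was higher in number 2 as well, at 3.92 and 6.18 RPKM in mimic NC and 2.65 and 7.12 RPKM in miR-217 mimic, a difference of 0.85 (limma adjusted p = 0.0554). ZNFX1-AS1_2 lay at 530 and 1199 RPKM in mimic NC and at 566 and 1282 RPKM in miR-217 mimic, a rise of 1.18 (limma adjusted p = 0.0209). ZNFX1-AS1_3 lay at 535 and 1549 RPKM and at 613 and 1449 RPKM, a rise of 1.39 (adjusted p = 0.0221). These rows name conserved stretches of ZFAS1 itself and are not independent of it.

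**Figure D3:**
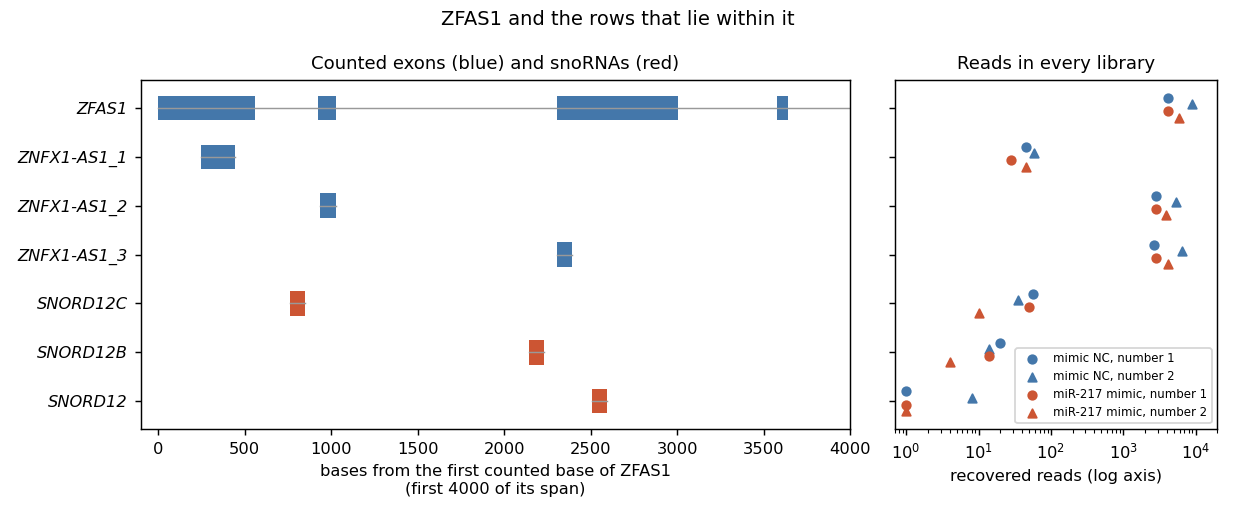
The first 4000 bases of the ZFAS1 span, with counted exons in blue and snoRNA rows in red by distance from the first counted base, and on the right the recovered reads (log axis) of each row in the 4 libraries, not scaled for depth. ZFAS1 rose from 4144 to 8825 reads in mimic NC and from 4183 to 5900 in miR-217 mimic, while SNORD12C went from 57 to 35 and from 50 to 10.

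The 2 intronic snoRNAs whose differences were opposite in sign to that of their host are shown, with the boxes that define the class, TGATGA near the start and CTGA near the end, in capitals (GENCODE 29 transcripts on GRCh38, plus strand).
SNORD12C (chr20:49278940-49279028): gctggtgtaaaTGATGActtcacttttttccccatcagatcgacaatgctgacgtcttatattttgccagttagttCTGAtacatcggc
SNORD12B (chr20:49280319-49280409): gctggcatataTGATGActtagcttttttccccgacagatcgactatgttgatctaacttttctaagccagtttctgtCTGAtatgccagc
The copies are 74.2% identical in a global alignment, and whether any read fits both was not tested.

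Genes of the same pathways were then set beside the hosts, from lists that name other hosts, the decay pathway and TOP mRNAs. Over all genes tested 3.69% were called higher and 4.69% lower, and the counts called in each list stand against these shares. Of 14 tested other noncoding snoRNA hosts, 3 were called higher in number 2 and none lower, with a median difference of 0.04. C6orf48, now named SNHG32, rose by 1.42 (limma adjusted p = 0.0205), from 5.92 to 19.1 RPKM in mimic NC and from 6.03 to 16.3 RPKM in miR-217 mimic. LRRC75A-AS1, now named SNHG29, rose by 0.70 (adjusted p = 0.0254), and SNHG17, named after its values were seen, by 0.63 (adjusted p = 0.033). The rest of that list did not pass, and its differences reached down to -0.31 for SNHG21.

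Among protein-coding snoRNA hosts, 4 of 23 were called higher and none lower, with a median of 0.21. DKC1, the pseudouridine synthase of box H/ACA particles, rose by 0.79 (limma adjusted p = 0.023), from 80.2 to 143 RPKM in mimic NC and from 90.4 to 154 RPKM in miR-217 mimic. EIF5, a translation initiation factor, rose by 0.68 (adjusted p = 0.0256). NCL and WDR43, named after their values were seen, made up the rest of the 4. Among snoRNP core proteins 2 of 8 were called higher, DKC1 and GAR1, the latter by 0.62 (limma adjusted p = 0.0283), with a median of 0.15.

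Few TOP mRNAs were called. Of 79 ribosomal protein genes, 0 were called higher and 2 lower (4 lower with median centring), with a median of -0.11, and without overlap 8 of them were higher in number 2, against 26.9% of all genes tested, and 39 lower, against 35.5%. FAU, which codes for a ribosomal protein fused to a ubiquitin-like protein, fell by 0.41 (limma adjusted p = 0.0461). Of 20 TOP mRNAs of translation factors, 2 were called higher, EIF2S3 by 0.39 (limma adjusted p = 0.0491) and NAP1L1 by 0.40 (adjusted p = 0.0484), with a median of 0.13.

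The decay pathway was described by its factors and by mRNAs known as its substrates. Of 10 NMD factors, 2 were called higher, UPF3B by 0.47 (limma adjusted p = 0.0461) and SMG5, itself held down by NMD, by 0.38 (adjusted p = 0.0487), with a median of 0.07. Of 10 NMD-sensitive mRNAs, 6 were called higher and 1 lower, with a median of 1.11. DDIT3, a stress transcription factor, rose by 1.94 (limma adjusted p = 0.0112), from 7.40 to 30.8 RPKM in mimic NC and from 6.87 to 29.8 RPKM in miR-217 mimic. CARS, the cysteinyl-tRNA synthetase, rose by 1.33 (adjusted p = 0.018), and GADD45B fell by 0.59 (adjusted p = 0.0385). ATF4, GADD45A, IFRD1 and UPP1 also rose. Several genes of this list are also activated by the transcription factor ATF4, which itself rose from 54.4 to 123 RPKM in mimic NC and from 57.4 to 121 RPKM in miR-217 mimic (1.11, limma adjusted p = 0.0205), and transcription and decay cannot be told apart from these levels.

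**Figure D4:**
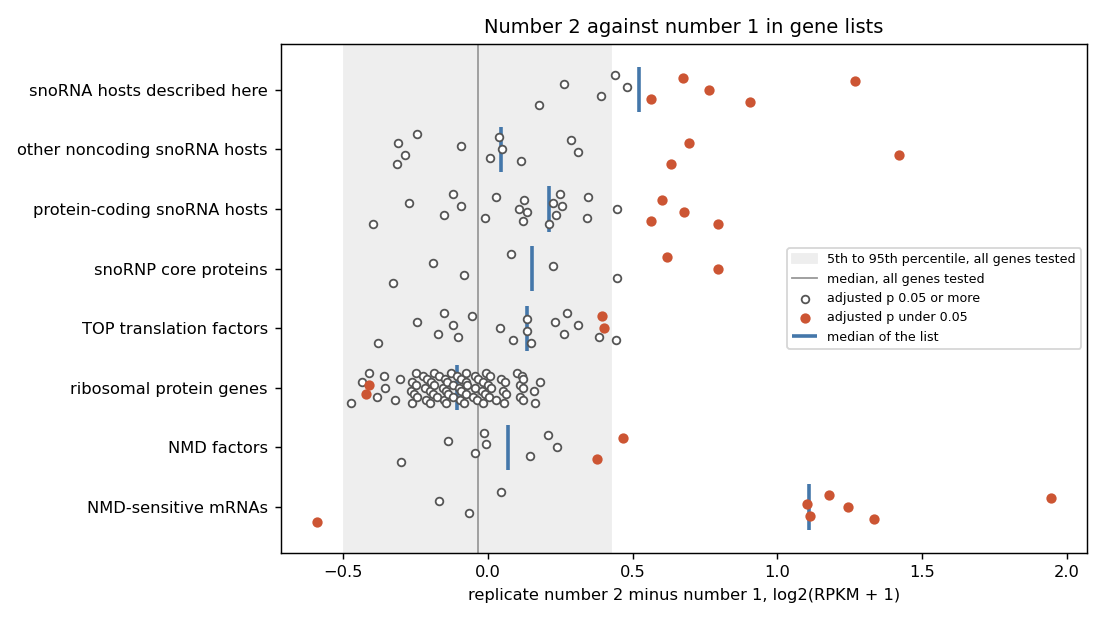
Number 2 minus number 1 on the log2(RPKM + 1) scale for every tested gene of each list (rows), with filled points for an adjusted p under 0.05, open points for the others, a blue line at the median of the list, and grey for the 5th to 95th percentile and the median of all genes tested. The medians are 0.52 for the hosts described here, 0.04 for other noncoding hosts, -0.11 for ribosomal protein genes and 1.11 for NMD-sensitive mRNAs.

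In the miR-217 mimic comparison 0 genes of these lists passed, with list medians from -0.05 for NMD factors to 0.09 for protein-coding hosts. At an unadjusted p under 0.05 (limma), SNHG19 was the only one among the snoRNA host lists (10, 14 and 23 genes tested). Over all genes tested the share was 1.19%. SNHG19 lay at 2.57 and 1.48 RPKM in mimic NC and 3.73 and 3.58 RPKM in miR-217 mimic (limma unadjusted p = 0.027), with 24 to 68 reads per library.

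The 5 genes closest in pattern to the median of the hosts were FARSB, KPNA4, TIMM44, CDV3 and USP36, by Euclidean distance over the 4 libraries (0.06 to 0.07) among 4315 other genes whose mean RPKM was 10 or more. FARSB, a subunit of phenylalanyl-tRNA synthetase, lay at 10.2 and 15.0 RPKM in mimic NC and at 10.6 and 17.1 RPKM in miR-217 mimic. The median profile of the hosts, as log2(RPKM + 1) minus the mean of each gene, was -0.29 and 0.17 in mimic NC 1 and 2 and -0.24 and 0.42 in miR-217 mimic 1 and 2. Likeness over 4 libraries is a description of these levels.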

How the data were processed

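RNA-seq was measured in 4 MDA-MB-231 libraries, and the labels gave the group and replicate number of each. The values are RPKM, deposited by the authors in a single table beside the exon coordinates, strand and exon length of each gene. The submitters' processing notes name Trimmomatic 0.36, featureCounts, Subread 1.5.1, edgeR 3.12.1 and hg38, while the aligner, the annotation and strand in counting are not given in the sources used here. RPKM times length summed to 1000000 per library. Values above 0 were whole multiples of what 1 read is worth in 100% of cases (within 0.01), from which reads were recovered (57933183 and 47374957 in mimic NC, 53356283 and 32635814 in miR-217 mimic).

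Tests used limma 3.58.1 in R 4.3.3 on log2(RPKM + 1), with the variance trended on mean level, two-sided, for the 13871 genes whose mean RPKM was 1 or more, with Benjamini-Hochberg adjustment over all of them. A fold on this scale understates the change of low genes. Treatment was fitted alone, and replicate number with treatment as a covariate. Samples with the same number deviated together (correlation 0.68), but the labels do not say what a number marks. The scripts were tested on simulated data. The members and lists were chosen with earlier results of these data known. Named are all 10 members, genes that share bases with them, snoRNA rows in them with at least 10 mean reads, from each other list the 2 largest rises and 2 largest falls past the test, and the 5 nearest patterns. The values of 1 gene that this rule names are not reported here. Alternatives were another pseudocount (0.1), no filter, a minimum mean RPKM of 5, median centring, the replicate block or no group term, and each library left out. Chosen after seeing the data were voom on recovered reads and subtraction of snoRNA reads. Of the table's columns, 0 sample columns were left unmapped.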

Additional observations from a re-analysis of the deposited data

Results flagged for a closer look

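In SNORD22, inside SNHG1, and SNORA61, inside SNHG12, number 2 and number 1 differed in opposite directions in the 2 treatments. On the log2(RPKM + 1) scale SNORD22 differed by -0.15 within mimic NC and by 0.42 within miR-217 mimic, and SNORA61 by -0.41 and 0.54. With 1 library for each number and treatment the difference was not tested. SNORD22 rests on 75 to 103 reads and SNORA61 on 136 to 223 reads per library.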

How the results depend on the processing

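In number 2 against number 1, each host tested stayed higher in each alternative run, and the same 5 passed with a pseudocount of 0.1, no group term and snoRNA reads subtracted. GAS5 and SNHG8 had no snoRNA row to subtract. With no filter 0 hosts and 1 higher and 2 lower genes passed, and with voom on recovered reads 8 hosts and 1402 higher and 1878 lower genes. Median centring gave 6 hosts, with SNHG15 added (limma adjusted p = 0.0448), and 780 higher genes. At a minimum mean RPKM of 5, which left 6 hosts with a median of 0.72, 5 passed, SNHG15 among them (limma adjusted p = 0.0374). At that minimum 645 higher and 817 lower genes passed. Leaving out 1 library at a time gave 0 to 10 hosts, 4 to 1537 higher and 5 to 2394 lower genes, with 3 libraries in each fit and the lone library assumed to vary like the others. The median of the 6 markers of the cell line, -0.02, became 0.0033 with median centring.

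In miR-217 mimic against mimic NC, 0 hosts and 0 genes passed in any alternative. SNHG7, 0.01, became -0.033 with voom and -0.046 with snoRNA reads subtracted. Leaving out 1 library at a time left numbers and treatments unequal, and the median over the hosts ranged from -0.15 to 0.47, GAS5 from -0.14 to 0.63, SNHG1 from -0.19 to 0.53, SNHG5 from -0.17 to 0.43, SNHG6 from -0.0079 to 0.28, SNHG7 from -0.24 to 0.25, SNHG8 from -0.49 to 0.44, SNHG12 from -0.054 to 0.42, SNHG15 from -0.13 to 0.49, SNHG16 from -0.14 to 0.55 and ZFAS1 from -0.63 to 0.72. With the replicate block the median stayed at 0.15 with 0 hosts called, and the block changed no call. The causes of these shifts were not tested.

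The planned tests with edgeR and DESeq2 were not run, because the table holds RPKM. Depth limits the snoRNA rows, most of which hold under 100 reads in a library.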
